A study of Mus musculus with 12 samples.

Results

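A set of 10 signalling genes was followed across visceral and subcutaneous fat precursor cells and across a short high-fat diet. They are the cytokines Il6, Lif, Il33 and Csf1 and the receptors Il6st, Lifr, Osmr, Il1rl1, Il1r1 and Il1r2, taken by symbol as a list of IL-6 family and IL-1 family cytokines and receptors, with Csf1 added. All 10 were in the count table of 14398 genes, and all 10 were among the 14266 genes that passed the filter on low counts.

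RNA was sequenced from adipocyte precursor cells, fibroblast-like cells of fat that can become adipocytes, in 12 libraries of 4 groups with 3 libraries each. The groups were perigonadal (visceral, VWAT) or inguinal subcutaneous (SWAT) fat of mice on a standard diet (SD, Harlan Laboratories 2018S, given as day 0) or a high-fat diet with 60% lard (HFD, product D12492 of Research Diets, fed for 3 days), and are written VWAT_SD, VWAT_HFD, SWAT_SD and SWAT_HFD. All mice were C57Bl6/J males of 6 to 8 weeks with no transgene named, and each library pooled tissue of 3 mice, so the spread between libraries is a spread between pools. The sort kept cells that lacked CD45 and CD31 and that carried CD29, CD34 and Sca1, whether CD24 was present or not. Where the SD mice were collected at day 0, diet and day of collection cannot be told apart. The labels do not say whether VWAT and SWAT libraries of the same number came from the same mice.

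As background, the IL-6 family signals through gp130, the shared receptor chain encoded by Il6st. IL-6 needs its own receptor IL-6R beside gp130, LIF pairs gp130 with LIFR, and oncostatin M pairs gp130 with OSMR or LIFR; the signal runs through JAK kinases to STAT3, and SOCS3 feeds back on it. IL-1 signals through IL1R1 with the accessory chain IL1RAP, whereas IL1R2 binds IL-1 without signalling and acts as a decoy. IL-33 is a nuclear alarmin of fibroblast-like cells whose receptor ST2, encoded by Il1rl1, is best known on regulatory T cells, mast cells and type-2 innate lymphoid cells of fat. CSF1 is a growth factor for macrophages that acts through CSF1R. In fat, stromal precursor cells are known as a source of IL-6, IL-33 and CSF1.

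Total gene counts ran from 17.6 M to 56.1 M per library (M, 1e6), so that 1 read was worth 0.0168 to 0.0669 counts per 1e6 (CPM, scaled here by trimmed mean of M-values, TMM). The first principal component of log2 CPM held 63.6% of the variance and separated the depots. VWAT_HFD replicate 3 stood apart from the other VWAT_HFD libraries on the second (15.8%), at -2.05 against 37.0 and 46.0, with VWAT_SD at -24.4 to -32.3. SWAT_HFD replicate 2 had a summed level of the 14 leukocyte markers of 91.2 CPM, against 10.8 to 29.4 CPM in the other libraries. Transcripts of the gate's positive markers were plentiful in every library (Cd34 956 to 1630 CPM, Ly6a, which encodes Sca1, 386 to 1190 CPM, Itgb1, which encodes CD29, 486 to 812 CPM), while Ptprc, which encodes CD45, was at 0.129 to 6.93 CPM and Pecam1, which encodes CD31, at 1.44 to 8.66 CPM. Of 12 precursor and gate genes, 7 were lower in VWAT than in SWAT on SD (edgeR adjusted p under 0.05) and none was higher. These were Cd34, Ly6a, Cd24a, Thy1, Dpp4, Pi16 and Col1a1. On HFD 6 were lower, and Itgb1 and Lum were higher. Over all genes tested, 12.5% were lower on SD, and 13.4% were lower and 13.4% higher on HFD. How far the sorted cells differed in kind between depots was not tested. The 9 endothelial markers, Pecam1 among them, summed to 188 to 320 CPM over all libraries, with Tek the highest at 173 to 302 CPM. In bulk libraries such as these, more cells with a transcript and more transcript per cell cannot be told apart.

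The proximal promoters of 4 of the 10 genes are shown first. They are the 250 bases before the annotated start in RefSeq on GRCm38.p6, all on the + strand, written 5′ to 3′, and capitals mark every match to 6 motifs searched on both strands. The motifs were NF-kB (GGG, any 2 bases, then TTTCC), AP-1 (TGANTCA), the core of the cyclic AMP response element, CRE (ACGTCA), C/EBP (TTGCNNAA), STAT (TTCNNNGAA) and E-box (CACGTG), and no match overlapped another. All 10 genes matched the promoter table, with 14 entries in all and 2 starts for each of 4 genes. The Il6 and Lif windows are shown because these cytokines rose in VWAT on HFD, the Il1r2 window because this gene differed most between depots, and both Il1rl1 starts because this gene had the largest fold changes with diet among the 10 genes in either depot.
Il6, chr5:30012864-30013113: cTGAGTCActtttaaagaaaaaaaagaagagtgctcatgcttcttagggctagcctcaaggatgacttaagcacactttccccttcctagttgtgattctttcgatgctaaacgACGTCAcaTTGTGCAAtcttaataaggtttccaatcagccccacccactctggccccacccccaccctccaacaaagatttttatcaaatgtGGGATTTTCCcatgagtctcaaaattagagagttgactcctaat
Lif, chr11:4257318-4257567: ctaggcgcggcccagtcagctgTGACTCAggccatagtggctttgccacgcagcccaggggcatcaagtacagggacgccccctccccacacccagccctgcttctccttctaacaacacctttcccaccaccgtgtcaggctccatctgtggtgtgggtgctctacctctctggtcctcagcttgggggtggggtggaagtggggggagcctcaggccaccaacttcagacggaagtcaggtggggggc
Il1r2, chr1:40085843-40086092: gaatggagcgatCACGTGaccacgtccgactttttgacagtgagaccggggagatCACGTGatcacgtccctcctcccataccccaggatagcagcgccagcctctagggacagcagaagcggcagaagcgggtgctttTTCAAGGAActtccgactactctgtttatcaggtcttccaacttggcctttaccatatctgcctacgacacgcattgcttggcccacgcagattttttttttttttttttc
Il1rl1, start 1, chr1:40429320-40429569: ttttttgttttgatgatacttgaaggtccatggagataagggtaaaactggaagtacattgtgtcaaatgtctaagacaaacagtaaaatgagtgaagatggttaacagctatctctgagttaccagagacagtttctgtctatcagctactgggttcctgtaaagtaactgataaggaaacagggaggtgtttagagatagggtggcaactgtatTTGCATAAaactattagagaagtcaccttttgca
Il1rl1, start 2, chr1:40439379-40439628: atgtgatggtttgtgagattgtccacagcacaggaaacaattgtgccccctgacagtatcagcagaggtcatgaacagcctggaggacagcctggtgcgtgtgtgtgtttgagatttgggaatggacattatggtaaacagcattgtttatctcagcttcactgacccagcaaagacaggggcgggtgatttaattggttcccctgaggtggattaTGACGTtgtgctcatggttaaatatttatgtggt

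The Il6 window held 4 different motifs: AP-1 at 249 to 243 bases before the start, CRE at 136 to 131, C/EBP at 128 to 121 and NF-kB at 44 to 35. Lif had an AP-1 match at 228 to 222 bases before its start. Il1r2 had E-box matches at 238 to 233 and 195 to 190 bases and a STAT match at 111 to 103 bases. Il1rl1 had a C/EBP match at 34 to 27 bases before start 1 and a CRE match at 34 to 29 bases before start 2. Among the other members, Csf1 had an NF-kB match at 154 to 145 bases, Il1r1 a C/EBP match at 133 to 126 bases before start 1, and Il33 a C/EBP match at 85 to 78 bases before start 2; Il6st, Lifr and Osmr had none. Over all 32851 promoter windows of this length in the table, 1.41% held the NF-kB letters, 6.75% AP-1, 6.47% CRE, 9.56% C/EBP, 7.02% STAT and 6.02% E-box. A match is a description of the letters, and no binding was measured.

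Of the 10 genes, 4 rose and 1 fell in VWAT on HFD: Il6, Lif, Il1rl1 and Il1r1 were higher, and Il33 was lower. Over all genes tested, 15.6% passed in this comparison, 8.64% higher and 6.98% lower. "Rose", "fell" and "passed" mean a Benjamini-Hochberg adjusted p under 0.05 over all 14266 genes in edgeR's quasi-likelihood test. None of the 10 passed in SWAT, where 1.11% of all genes did, and none passed for a difference in diet response between depots, where no gene passed (0%) although 1026 had an unadjusted p under 0.05. The median log2 change of the 10 genes was 0.32 in VWAT and 0.06 in SWAT, beside -0.02 and -0.0015 over all genes tested. The libraries of both diets did not overlap for 4 of the 10 genes in VWAT (Lif, Il1rl1, Il1r1 and Csf1) and for 1 in SWAT (Il1rl1), beside 33% and 21.8% of all genes tested. Without VWAT_HFD replicate 3, 4 genes rose and none fell in VWAT, and 1 rose in SWAT.

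**Figure D1:**
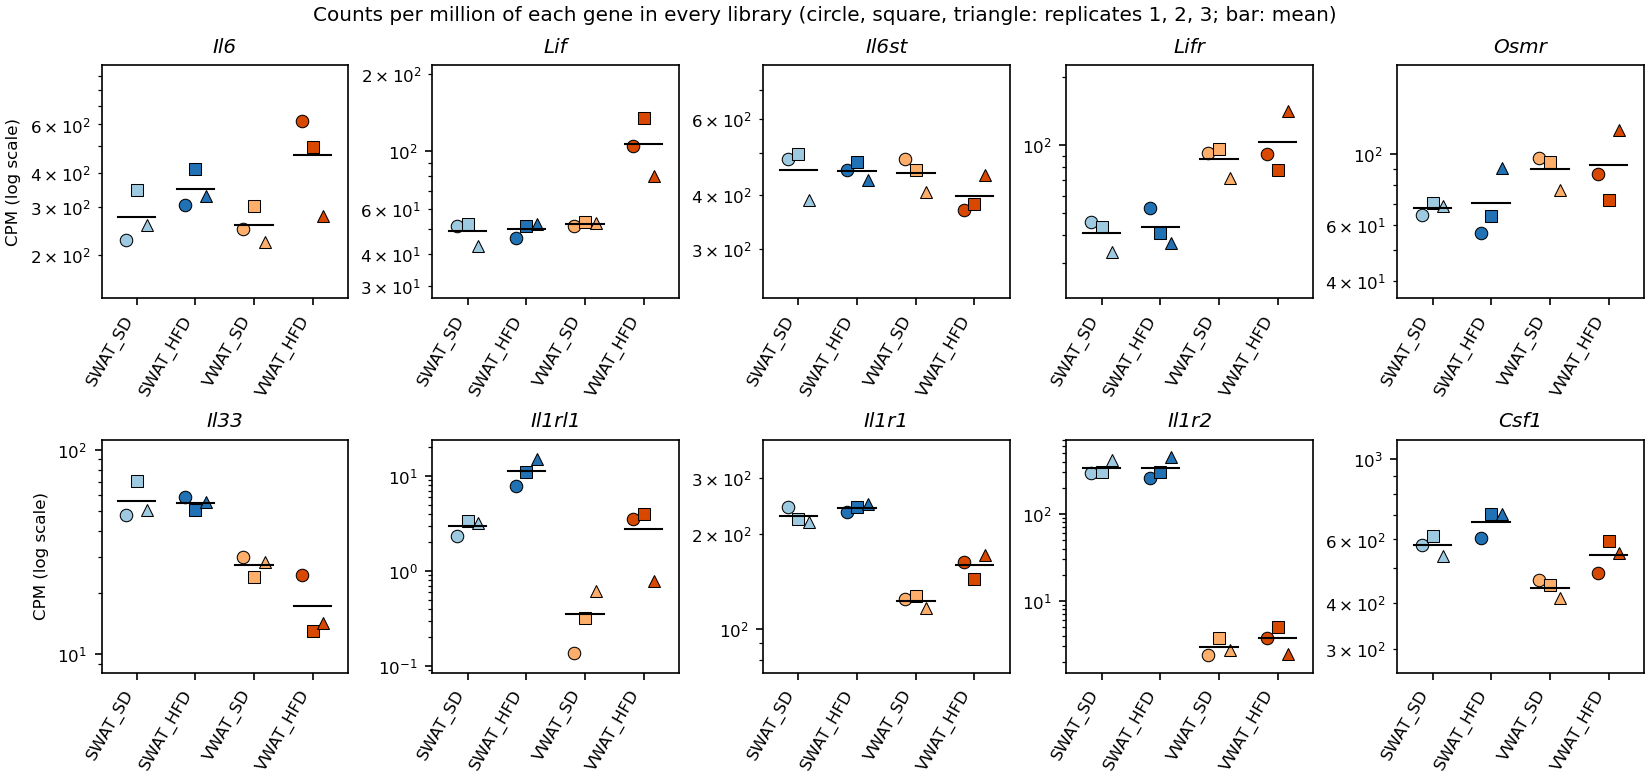
Level of each of the 10 genes in every library, as TMM-scaled CPM on a log axis, by group (VWAT_SD, VWAT_HFD, SWAT_SD, SWAT_HFD); circles, squares and triangles are replicates 1, 2 and 3 and the bar is the mean of 3 libraries. Il1r2 lies below 5 CPM in every VWAT library and above 262 CPM in every SWAT library, and Lif lies above 79 CPM only in VWAT_HFD.

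Between depots, 6 of the 10 genes passed on SD (Lifr higher in VWAT; Il33, Il1rl1, Il1r1, Il1r2 and Csf1 lower in VWAT), beside 25.7% of all genes tested. On HFD 7 passed, the same 6 in the same directions and Lif, which was higher in VWAT, beside 26.8% of all genes. For 7 genes on either diet the VWAT and SWAT libraries did not overlap, which held for 45.1% of all genes on SD and 36% on HFD. The median size of the log2 difference over the 10 genes was 0.65 on SD and 0.85 on HFD, beside 0.22 over all genes on each. Scaling by library size alone shifted the median log2 difference of all genes to 0.24 on SD and 0.30 on HFD, and to -0.13 and -0.18 for diet in VWAT and SWAT.

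Il6, the cytokine that gives the IL-6 family its name, was at 249, 303 and 223 CPM in replicates 1, 2 and 3 of VWAT_SD and at 617, 497 and 278 CPM in those of VWAT_HFD. In SWAT it was at 227, 347 and 257 CPM on SD and 304, 413 and 330 CPM on HFD. VWAT_HFD replicates 1 and 2 were above every other library, while replicate 3 lay inside the range of VWAT_SD. Il6 rose 1.80-fold in VWAT (log2 0.85, SE 0.25, 95% interval 0.31 to 1.38, adjusted p = 0.0361). In SWAT its log2 change was 0.33 (interval -0.20 to 0.87, adjusted p = 0.571), and the difference between the depots' changes was 0.51 (interval -0.24 to 1.26, adjusted p = 0.842).

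The Il6 call depended on single libraries and on the model. Without VWAT_HFD replicate 3 the log2 change was 1.11 (adjusted p = 0.00104). The call was lost without VWAT_HFD replicate 1 (0.150) or 2 (0.132), without VWAT_SD replicate 1 (0.0979), 2 (0.0528) or 3 (0.133), with limma voom (0.0510) and in a fit of the VWAT libraries alone (0.0807), all adjusted p. Between depots Il6 did not pass on SD (log2 -0.10, adjusted p = 0.818) or on HFD (0.41, adjusted p = 0.256). Without VWAT_HFD replicate 3 the difference on HFD was 0.67 (adjusted p = 0.0164).

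Lif, the leukemia inhibitory factor, was nearly level in the 9 other libraries and higher in VWAT_HFD. It was at 51.4, 53.0 and 52.9 CPM in VWAT_SD, at 105, 135 and 79.9 CPM in VWAT_HFD, at 51.3, 52.4 and 43.0 CPM in SWAT_SD and at 46.0, 51.4 and 52.2 CPM in SWAT_HFD. Every VWAT_HFD library was above all others, with replicate 3 the lowest of the 3. Lif rose 2.03-fold in VWAT (log2 1.02, SE 0.15, interval 0.70 to 1.35, adjusted p = 0.00133), and the call held in 21 of 21 alternatives (adjusted p 1.27e-08 to 0.0163).

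In SWAT the log2 change of Lif was 0.03 (interval -0.30 to 0.35, adjusted p = 0.962). The difference between depots in its diet change was 0.99 (interval 0.54 to 1.45, unadjusted p = 0.00042, adjusted p = 0.452) and did not pass. It passed without VWAT_HFD replicate 3 (log2 1.16, adjusted p = 0.0127), with DESeq2's Wald test (0.0176) and without both libraries that stood apart (0.0255). On HFD, Lif was 2.13-fold higher in VWAT than in SWAT (log2 1.09, SE 0.15, adjusted p = 0.000104), and on SD the log2 difference was 0.10 (adjusted p = 0.697).

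Early response genes that dissociation of tissue can induce were compared with these cytokines. The summed level of 12 of them (Fos, Egr1, Dusp1 and others) was 19146, 22720 and 30216 CPM in VWAT_HFD replicates 1, 2 and 3, against 30219 to 33180 CPM in VWAT_SD, 34244 to 36259 CPM in SWAT_SD and 28346 to 29488 CPM in SWAT_HFD. In VWAT on HFD 1 of the 12 rose (Ier3, log2 0.59) and 3 fell, beside 8.64% higher and 6.98% lower over all genes tested. Those that fell were Fos (1.55-fold), Egr1 (1.55-fold) and Dusp1 (1.25-fold), calls lost in 6, 12 and 11 of 21 alternatives. The sum was lowest in the 2 libraries where Il6 and Lif were highest. Not every gene of the list followed the sum. From VWAT_SD to VWAT_HFD the mean went from 1401 to 1873 CPM for Nr4a1, 2220 to 2529 for Fosb and 108 to 163 for Ier3. The means of all others in the list were lower in VWAT_HFD. The part of these early response genes in the Il6 and Lif changes was not tested.

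**Figure D2:**
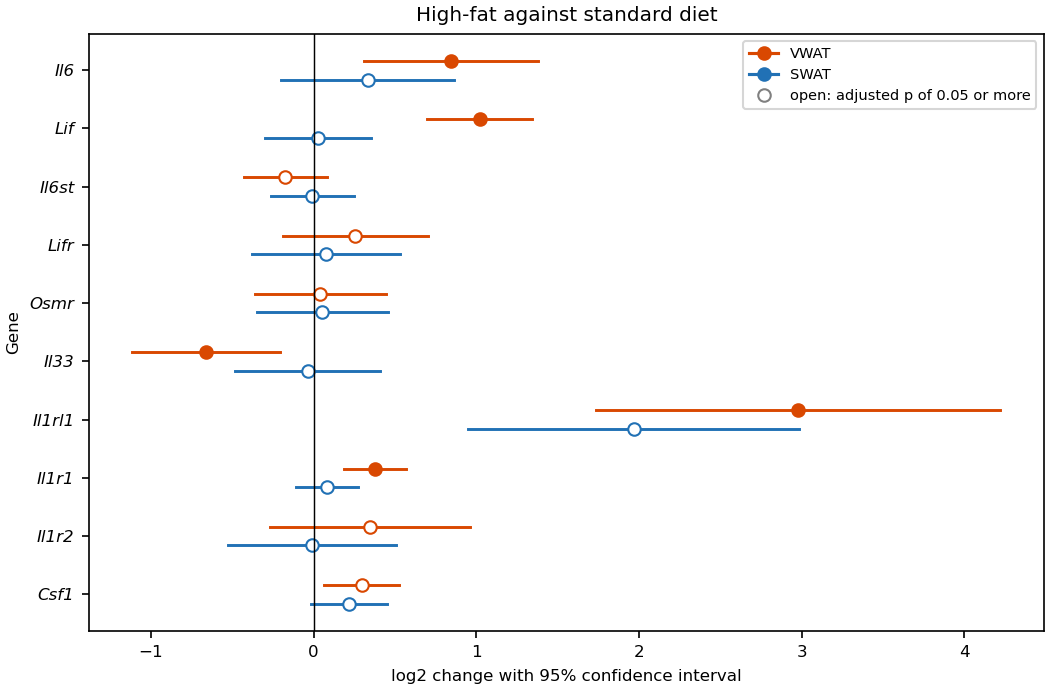
Log2 change on HFD against SD for the 10 genes in VWAT and in SWAT, from edgeR, with 95% intervals; filled points passed at an adjusted p under 0.05 over all genes tested. In VWAT Il6, Lif, Il1rl1 and Il1r1 are filled above 0 and Il33 below 0, and in SWAT no point is filled, with Il1rl1 the farthest from 0 at 1.97.

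Il6st, the shared gp130 chain, passed in no contrast. It was at 484, 457 and 406 CPM in VWAT_SD, 369, 382 and 444 CPM in VWAT_HFD, 485, 498 and 389 CPM in SWAT_SD and 455, 477 and 434 CPM in SWAT_HFD. All 4 groups overlapped. The log2 change on HFD was -0.17 in VWAT (interval -0.43 to 0.08, adjusted p = 0.340) and -0.0076 in SWAT (interval -0.26 to 0.25, adjusted p = 0.989).

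Lifr, the LIF receptor chain, differed by depot. It was at 92.4, 96.5 and 71.7 CPM in VWAT_SD and 91.7, 78.2 and 142 CPM in VWAT_HFD, against 45.8, 43.7 and 33.6 CPM in SWAT_SD and 52.9, 40.9 and 37.0 CPM in SWAT_HFD. Every VWAT library was above every SWAT library. The log2 difference of VWAT from SWAT was 1.08 on SD (SE 0.21, adjusted p = 0.00172) and 1.26 on HFD (SE 0.21, adjusted p = 0.000536), and both calls held in 21 of 21 alternatives. Lifr did not pass for diet in VWAT (log2 0.26, adjusted p = 0.423), where replicate 3 alone was above all SD libraries.

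Osmr, the oncostatin M receptor chain, was at 97.6, 94.4 and 77.2 CPM in VWAT_SD and 86.5, 71.9 and 119 CPM in VWAT_HFD. In SWAT it was at 64.7, 70.2 and 69.0 CPM on SD and 56.6, 64.0 and 90.3 CPM on HFD. VWAT_SD lay above SWAT_SD without overlap, whereas the HFD groups overlapped. Osmr passed neither for diet (log2 0.04 in VWAT, adjusted p = 0.905) nor for depot (0.40 on SD, adjusted p = 0.142; 0.39 on HFD, adjusted p = 0.152). The depot difference passed on HFD without SWAT_HFD replicate 3 (log2 0.61, adjusted p = 0.0269), on SD in a fit of the SD groups alone (0.0157), and on both diets with scaling by library size alone (0.0284 on SD, 0.0160 on HFD). Osmr and Lifr are adjacent protein-coding genes in the RefSeq gene order.

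The IL-33 axis was lower in VWAT for ligand and receptor alike. Il33 was at 30.0, 24.0 and 28.2 CPM in VWAT_SD, 24.6, 13.0 and 14.3 CPM in VWAT_HFD, 48.0, 70.2 and 50.6 CPM in SWAT_SD and 58.9, 50.9 and 55.3 CPM in SWAT_HFD. Every VWAT library lay below every SWAT library. Il33 was 2.06-fold lower in VWAT on SD (log2 -1.04, SE 0.21, adjusted p = 0.00208) and 3.17-fold lower on HFD (log2 -1.66, SE 0.21, adjusted p = 5.54e-05), and both calls held in 21 of 21 alternatives.

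On HFD, Il33 fell 1.58-fold in VWAT (log2 -0.66, SE 0.21, adjusted p = 0.0494), a call close to the threshold with overlapping groups. It was lost in 15 of 21 alternatives, whose adjusted p ran from 0.00482 to 0.216. It was lost without VWAT_SD replicate 1 (0.135), 2 (0.0685) or 3 (0.129), VWAT_HFD replicate 2 (0.216) or 3 (0.0883), SWAT_SD replicate 1 (0.0635) or 3 (0.0557), and SWAT_HFD replicate 1 (0.0720), 2 (0.0705) or 3 (0.0613). In SWAT its log2 change was -0.04 (adjusted p = 0.965).

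Il1rl1, which encodes the IL-33 receptor ST2, was the lowest of the 10 genes and had the largest fold changes with diet among them. In VWAT_SD it had 8, 15 and 33 counts (0.136, 0.317 and 0.609 CPM) in replicates 1, 2 and 3, and in VWAT_HFD 211, 199 and 36 counts (3.56, 3.99 and 0.774 CPM). In SWAT it was at 2.31, 3.36 and 3.21 CPM on SD and 7.76, 11.1 and 15.1 CPM on HFD. In both depots every HFD library was above every SD library, and VWAT_HFD replicate 3 was close to VWAT_SD replicate 3.

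Il1rl1 rose 7.89-fold in VWAT (log2 2.98, SE 0.58, interval 1.74 to 4.22, adjusted p = 0.00503), and the call held in 20 of 20 alternatives (adjusted p 6.50e-05 to 0.0326). Leaving out VWAT_SD replicate 3, the highest of its group, gave a log2 change of 3.65, and leaving out VWAT_HFD replicate 3 gave 3.41. In SWAT the change was 3.91-fold (log2 1.97, SE 0.47, interval 0.95 to 2.98, adjusted p = 0.0679) and did not pass. It passed in a fit of the SWAT libraries alone (0.00237), without VWAT_HFD replicate 3 (0.00213) and without both libraries that stood apart (0.00882), and had an adjusted p of up to 0.255 in the other alternatives. The difference between the depots' changes was 1.01 (interval -0.60 to 2.62, adjusted p = 0.858).

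Il1rl1 was 8.30-fold lower in VWAT than in SWAT on SD (log2 -3.05, SE 0.58, adjusted p = 0.00146) and 4.11-fold lower on HFD (log2 -2.04, SE 0.46, adjusted p = 0.00507). Gene counts cannot tell apart its 2 starts, or the soluble and membrane forms of ST2. Markers of the immune cells best known for ST2 were summed by list. Each sum was above Il1rl1 in every VWAT_SD library. In SWAT_HFD, where Il1rl1 was at 7.76 to 15.1 CPM, each sum was below Il1rl1 in every library. In VWAT_HFD and SWAT_SD the sum for type-2 innate lymphoid and regulatory T cells was above Il1rl1 in every library. The mast cell sum was above Il1rl1 in VWAT_HFD replicate 3 and SWAT_SD replicate 2, and below it in the other libraries of these groups. A sum depends on which genes are listed, so no source of Il1rl1 is read from these orders. Of the mast cell list (6 of 7 in the table), none of the 4 genes tested passed for diet in VWAT, beside 15.6% of all genes. Between depots, 2 of the 4 were lower in VWAT on SD (Cpa3 and Mcpt4) and 1 on HFD (Cpa3), and none was higher. Over all genes tested, 12.5% were lower in VWAT on SD and 13.4% on HFD. The list summed to 0.986 to 1.55 CPM in VWAT_SD and 1.57 to 2.39 CPM in VWAT_HFD, with Hdc the highest gene in both. In SWAT this sum was high in SWAT_SD replicate 2 (7.12 CPM) and SWAT_HFD replicate 2 (8.69 CPM). It was 0.602 to 1.48 CPM in the other SWAT libraries, and Mcpt4 was the highest gene in both SWAT groups. Over all 12 libraries, Kit, a receptor on mast cells, was at 0 to 0.557 CPM. The protease genes of the list reached higher levels, with maxima of 2.04 CPM for Mcpt4, 1.73 for Tpsb2, 1.67 for Cpa3 and 1.39 for Cma1. The list for type-2 innate lymphoid and regulatory T cells (5 of 10 in the table) summed to 10.5 to 12.0 CPM in VWAT_SD, 8.81 to 10.9 in VWAT_HFD, 3.80 to 6.08 in SWAT_SD and 5.18 to 6.03 in SWAT_HFD, with Il2ra the highest gene. Of that list Areg rose in VWAT, from 0.413 ± 0.214 to 2.07 ± 1.05 CPM (SD, n = 3; edgeR adjusted p = 0.00785), and Gata3 was at 0.0423 to 0.541 CPM over all libraries. The part of such cells in the Il1rl1 level was not tested.

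The receptors of IL-1 itself separated the depots. Il1r1, the signalling receptor, was at 125, 127 and 116 CPM in VWAT_SD and 162, 144 and 171 CPM in VWAT_HFD, against 243, 224 and 219 CPM in SWAT_SD and 234, 243 and 249 CPM in SWAT_HFD. It was 1.86-fold lower in VWAT on SD (log2 -0.90, adjusted p = 5.30e-06) and 1.52-fold lower on HFD (log2 -0.60, adjusted p = 0.000177), both in 21 of 21 alternatives.

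On HFD, Il1r1 rose in VWAT (log2 0.38, SE 0.09, adjusted p = 0.0135), with no overlap between the diets. That call was lost without VWAT_SD replicate 3 (0.0659), in a fit of the VWAT libraries alone (0.0516) and with scaling by library size alone (0.0846). In SWAT the log2 change was 0.08 (adjusted p = 0.725).

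Il1r2, the decoy receptor, differed most. It was at 2.40, 3.79 and 2.70 CPM in VWAT_SD (141, 179 and 146 counts) and 3.77, 4.98 and 2.45 CPM in VWAT_HFD (224, 248 and 114 counts). In SWAT it was at 292, 306 and 422 CPM on SD and 262, 301 and 448 CPM on HFD. Il1r2 was 115.5-fold lower in VWAT on SD (log2 -6.85, SE 0.32, adjusted p = 6.38e-09) and 90.1-fold lower on HFD (log2 -6.49, adjusted p = 8.93e-09), in 21 of 21 alternatives on each. It did not pass for diet in VWAT (log2 0.35, adjusted p = 0.435) or in SWAT (log2 -0.01, adjusted p = 0.991).

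Per kilobase of exon, the decoy exceeded the signalling receptor in every SWAT library, with a ratio of Il1r2 to Il1r1 of 4.83 to 8.31. In VWAT the order was turned, with a ratio of 0.0618 to 0.148. Il1rap, the accessory chain that IL1R1 and ST2 both need, was also lower in VWAT, at 15.7 ± 0.7 CPM on SD and 18.9 ± 0.2 CPM on HFD against 54.1 ± 1.1 and 69.9 ± 10.9 CPM in SWAT (SD, n = 3 libraries; 3.45-fold, adjusted p = 3.95e-08, and 3.70-fold, adjusted p = 2.56e-08, by edgeR).

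**Figure D3:**
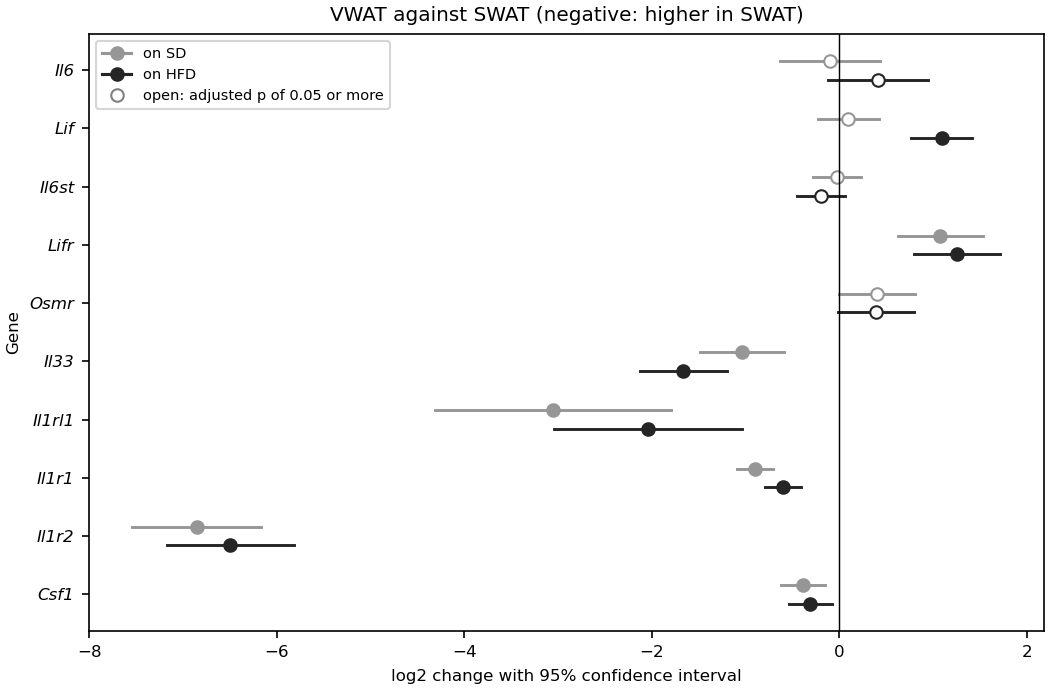
Log2 difference of VWAT from SWAT for the 10 genes on SD and on HFD, from edgeR, with 95% intervals; filled points passed at an adjusted p under 0.05 over all genes tested. Il1r2 lies at -6.85 and -6.49, far below the other genes, and Lifr lies above 0 on both diets.

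Il1r2, Il1r1 and Il1rl1 lie in 1 run of receptor genes on mouse chromosome 1, in the RefSeq order Il1r2, Il1r1, Il1rl2, Il1rl1, Il18r1 and Il18rap. The display of their neighbours was chosen after the values were seen. Il1rl2, the IL-36 receptor, was at 43.9 and 50.6 CPM in VWAT on SD and HFD against 208 and 210 CPM in SWAT, 4.75-fold lower on SD (adjusted p = 2.07e-09) and 4.14-fold lower on HFD (adjusted p = 4.95e-09). Il18r1, an IL-18 receptor chain, was at 0.629 and 0.954 CPM in VWAT against 36.9 and 58.8 CPM in SWAT, 60.7-fold lower on each diet (adjusted p = 6.38e-07 and 4.97e-07). All 5 receptor genes of the run that were tested were lower in VWAT on both diets, beside 12.5% of all genes on SD and 13.4% on HFD. Il1r2, Il1r1 and Il1rl1 among them are members already given above. The differences ran from 1.52-fold (Il1r1 on HFD) to 115.5-fold (Il1r2 on SD). Il18rap was not found in the count table.

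The tested neighbours of the run were these. Map4k4, a kinase gene next to Il1r2, was 1.44-fold lower in VWAT on SD (216 against 311 CPM, adjusted p = 0.00234) and 1.26-fold lower on HFD (230 against 290 CPM, adjusted p = 0.0345). On the far side, Slc9a4 was under 0.9 CPM in every library and did not pass (1.59-fold lower in VWAT on SD, adjusted p = 0.370; 1.66-fold lower on HFD, adjusted p = 0.241). Mfsd9, at 1.37 to 3.12 CPM, did not pass either (adjusted p = 0.0994 on SD and 0.999 on HFD).

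**Figure D4:**
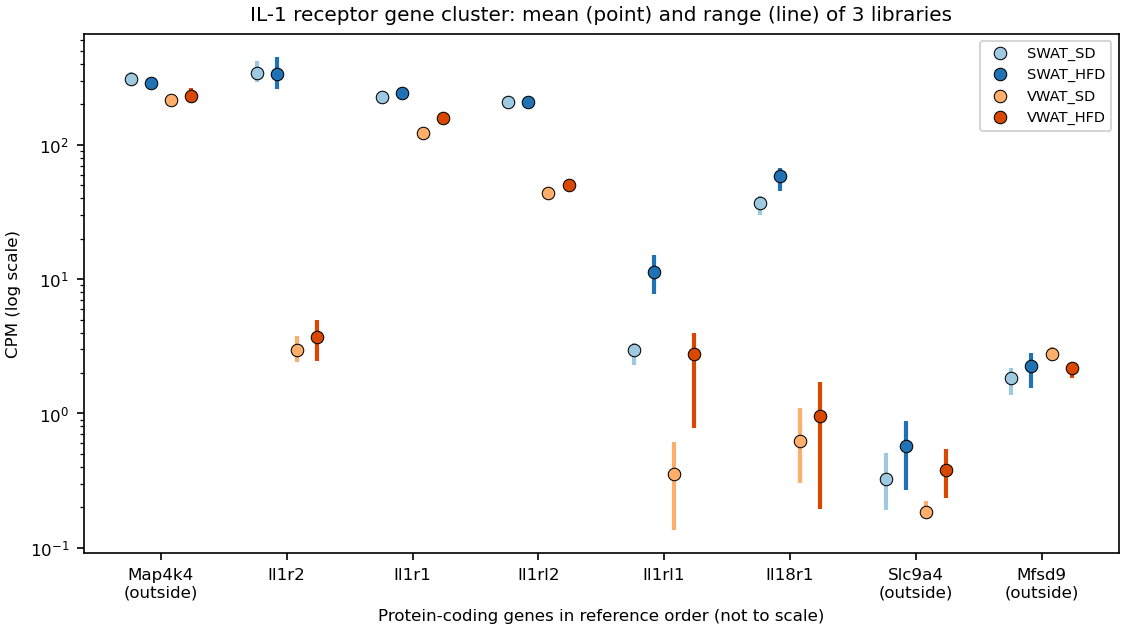
Mean level (point) and range over 3 libraries (line) in each of the 4 groups, as TMM-scaled CPM on a log axis, for the IL-1 receptor genes and tested neighbours in their RefSeq order along chromosome 1; positions are order only, not distance. The VWAT groups lie below the SWAT groups at all 5 receptor genes from Il1r2 to Il18r1, with the widest gaps at Il1r2 and Il18r1.

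Csf1, the macrophage growth factor, was among the higher genes in every group. It was at 464, 449 and 413 CPM in VWAT_SD, 484, 593 and 550 CPM in VWAT_HFD, 581, 613 and 541 CPM in SWAT_SD and 604, 704 and 707 CPM in SWAT_HFD. The VWAT libraries on HFD lay above those on SD without overlap, but the log2 change of 0.30 did not pass (SE 0.11, adjusted p = 0.0803); it passed with DESeq2's Wald test (0.0183). In SWAT the log2 change was 0.22 (adjusted p = 0.373).

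Csf1 was lower in VWAT on SD (log2 -0.39, SE 0.11, adjusted p = 0.0167) and, close to the threshold, on HFD (log2 -0.31, SE 0.11, adjusted p = 0.0492). On SD the call was lost without VWAT_SD replicate 3 (0.0741), without SWAT_SD replicate 2 (0.0721) and with scaling by library size alone (0.248). On HFD it was lost in 14 of 21 alternatives: with scaling by library size alone the log2 difference was -0.03 (adjusted p = 0.857), and without VWAT_HFD replicate 1 (0.152) or 3 (0.0534), SWAT_HFD replicate 2 (0.151) or 3 (0.122), SWAT_SD replicate 1 (0.0615) or 2 (0.0607), or VWAT_SD replicate 1 (0.0646), 2 (0.0710) or 3 (0.0574) the adjusted p was above 0.05. CSF1's receptor gene Csf1r, a macrophage marker, was at 1.03 to 10.7 CPM, and Il34, its other ligand, at 5.59 to 13.3 CPM.

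Compared per kilobase of exon, so that genes of unequal length can be set side by side, the order of levels differed between depots. In SWAT_SD Il1r2 was highest at 240 CPM per kilobase, followed by Csf1 (122) and Il6 (114), whose libraries overlapped. In VWAT_SD Il6 (106) and Csf1 (93.6) were highest, and Il1r2 (2.09) was above Il1rl1 alone. On HFD Il6 led VWAT at 191 CPM per kilobase, with Csf1 at 115 and Il6st at 36.3, and Il1r2 led SWAT at 238, with Il6 at 144 and Csf1 at 142. Il1rl1 was the lowest of the 10 in every group, at 0.0518 to 1.66 CPM per kilobase. Exon lengths were taken from a newer gene annotation than the counts, so these levels are approximate.

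Partners of the 10 genes are given by list, beside the 15.6% of all genes that passed for diet in VWAT and the 1.11% in SWAT. Of the other gp130 ligands (4 of 9 in the table), Il11 rose 3.16-fold in VWAT, from 0.352 ± 0.075 to 1.12 ± 0.48 CPM (SD, n = 3; edgeR adjusted p = 0.00983), and none passed in SWAT. Of the 5 ligand-binding receptors beside gp130, Cntfr, the receptor for ciliary neurotrophic factor, fell in both depots (1.63-fold in VWAT, adjusted p = 0.00355; 1.52-fold in SWAT, adjusted p = 0.0455). Il6ra, the ligand-binding receptor of IL-6, was at 29.2 to 58.6 CPM and passed in no contrast. Osm, Il1a and Il1rn, which encode the OSMR ligand, IL-1 alpha and the IL-1 receptor antagonist, were not found in the count table. Il1b was at 0.137 to 2.60 CPM and passed in no contrast.

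Below gp130, Jak2 was the 1 of 11 kinases, STATs and adaptors that passed in VWAT (1.39-fold higher, adjusted p = 0.00361), and none passed in SWAT. Of 10 inhibitors of the pathway, Socs2, Socs5 and Ptpn1 rose in VWAT (1.23-fold to 1.41-fold) and Socs3, the feedback inhibitor of gp130, fell 1.70-fold from 1994 ± 435 to 1175 ± 195 CPM (SD, n = 3; edgeR adjusted p = 0.0111). Of 13 STAT3 targets in the table, 1 rose in VWAT (Timp1, 2.02-fold, adjusted p = 0.0119) and 2 fell (Socs3, and Cebpd 1.94-fold, adjusted p = 0.000958). In SWAT Cebpd was the 1 that passed (1.61-fold lower, adjusted p = 0.0306). Socs3 and Cebpd are also early response genes, but neither is in the list of dissociation-linked genes. The sum of that list given above was lower in VWAT_HFD replicates 1 and 2, and its part in the Socs3 and Cebpd changes was not tested.

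Of 19 NF-kB targets tested, 12 rose and 1 fell in VWAT on HFD, with a median log2 change of 0.51 beside -0.02 over all genes tested. The 4 with the lowest adjusted p were Ccl7 (3.22-fold, 0.00221) and Ccl2 (2.73-fold, 0.00225), chemokines for monocytes, Nfkb2 (1.63-fold, 0.00399), an NF-kB subunit, and Cxcl2 (2.56-fold, 0.0043), a chemokine for neutrophils. The 1 that fell, Mmp3, a matrix-degrading enzyme (1.63-fold, adjusted p = 0.0194), was named for its direction. In SWAT 1 of the 19 passed, the adhesion molecule gene Vcam1 (1.45-fold higher, adjusted p = 0.0402). Of 16 components between IL-1 receptors and NF-kB, none rose and 1 fell in VWAT (Tab1, 1.21-fold, adjusted p = 0.0492).

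Of 6 further colony-stimulating factors and their receptors in the table, Csf2, which encodes GM-CSF, rose in both depots. It went from 2.99 ± 1.00 to 16.1 ± 9.0 CPM in VWAT (5.36-fold, adjusted p = 0.00344) and from 1.32 ± 0.30 to 6.24 ± 2.58 CPM in SWAT (4.81-fold, adjusted p = 0.0469; SD, n = 3, edgeR). Of 8 genes for decay of cytokine messages, Zc3h12a, which encodes Regnase-1 and degrades Il6 message, rose 1.42-fold in VWAT (adjusted p = 0.0137). Of 5 genes for shedding of receptors, Adam17, the sheddase of the IL-6 receptor, rose 1.27-fold (adjusted p = 0.0295), and its inhibitor gene Timp3 fell 1.65-fold (adjusted p = 0.0390) in VWAT. No gene of any list passed in SWAT when any 1 SWAT_SD library or SWAT_HFD replicate 2 was left out, since the count of all genes passing was then 0. Among the calls named in VWAT, those of Cntfr, Jak2, Cebpd, Ccl7, Ccl2, Nfkb2, Cxcl2 and Csf2 held in every alternative, and those of Il11 (lost in 1 alternative), Socs3 (2), Zc3h12a (2), Mmp3 (3), Timp1 (3), Adam17 (5), Socs5 (5), Socs2 (7), Ptpn1 (7), Timp3 (10) and Tab1 (16) did not.

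**Figure D5:**
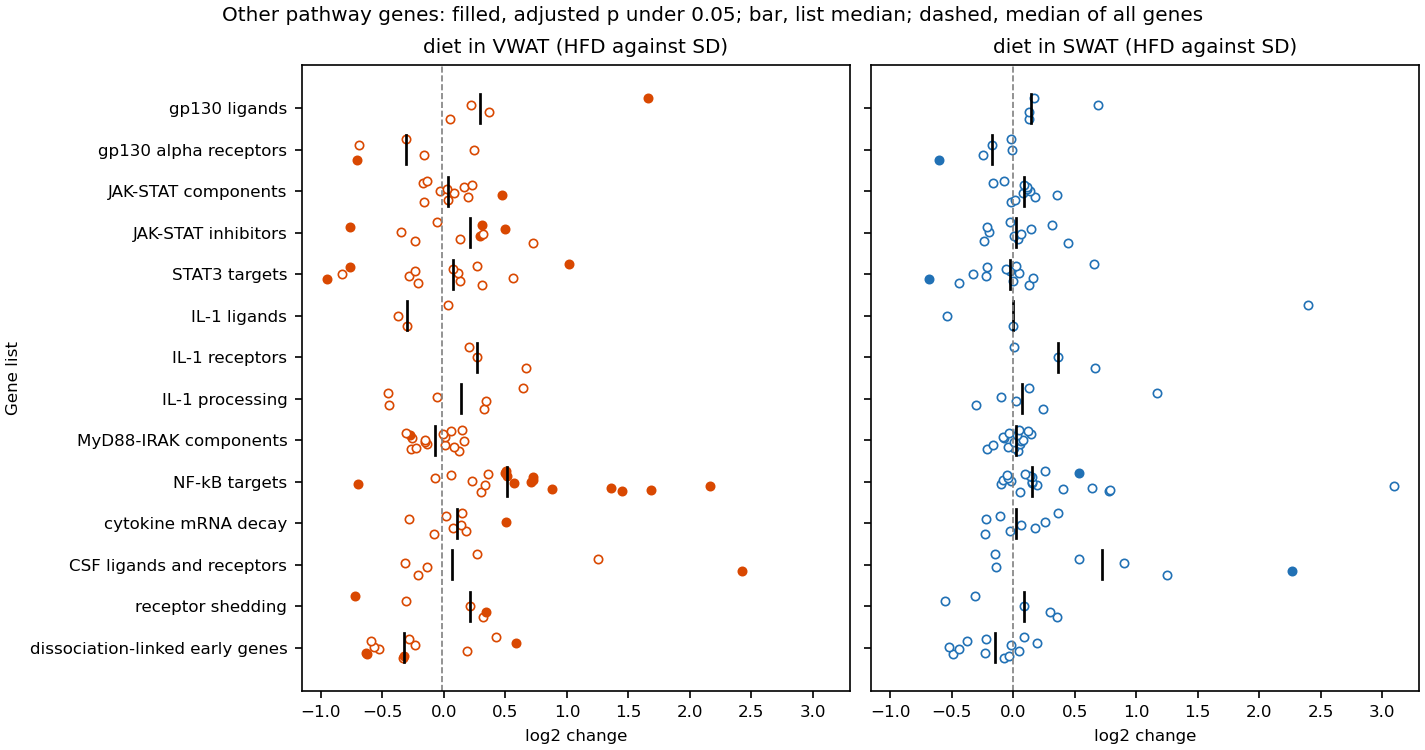
Log2 change on HFD against SD in VWAT and in SWAT for each gene of the pathway lists, from edgeR; each point is a gene, and filled points passed at an adjusted p under 0.05 over all genes tested. The NF-kB targets have 12 filled points above 0 in VWAT and 1 in SWAT.

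Over the 12 libraries, the genes most like each member in log2 CPM were named by Pearson's r among 9942 genes with a mean of at least 5 CPM (9943 for Il1rl1), as a description that rests largely on depot. For Il1r2 they were Pde1b, Irx1 and Irx2 (r of 0.99 or above), for Il1r1 Plvap, H2-Q6 and Pi4k2a (0.97 to 0.99), and for Il33 Ap3m2, Casp12 and Trim12a (0.96 to 0.98). Lifr was most like Arhgap32, Btbd3 and Hectd2 (0.97), and Il1rl1 was like Entpd6 (0.98) and Pdia5 (0.97). For Lif they were Mapkapk2, a kinase that stabilises cytokine messages, Dos and Nr4a2 (0.95 to 0.97), and for Csf1 Clint1, Plat and Chd4 (0.95 to 0.96). Il6st was most like Trim56, Insr and Map4k5 (0.94), Il6 most like Adipor2, Scarb1 and Mapre1 (0.91 to 0.92), and Osmr most like Wdfy1, Eps8 and Nr1h3 (0.88 to 0.89). Among the members themselves, Il6 and Lif had an r of 0.71 over all libraries and 0.61 once each group's mean was removed, while Il1r1 and Il1r2 had 0.93 and -0.37.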

How the data were processed

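Poly(A) RNA of 12 pooled libraries was made into dUTP strand-marked libraries and read as 75 bp single ends, per the labels' protocols. Reads were aligned with TopHat and counted with HTSeq on mm9, per the submitters' processing notes; versions and the strand setting of the counting are not given in the sources used here, so genes with an overlapping or antisense partner are uncertain. The authors deposited 1 table of unnormalised counts with 14398 genes and 3 entries that name no gene (3.53 to 5.57% in no feature, 1.71 to 1.95% ambiguous and 14.98 to 20.8% not uniquely aligned), which entered neither the library sizes nor the tests.

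Genes were filtered with filterByExpr by group (132 removed) and tested with edgeR 4.0.16 (quasi-likelihood F test, robust, TMM scaling, R 4.3.3) in 1 fit of the 4 groups, with 5 contrasts and Benjamini-Hochberg adjustment over 14266 genes. All adjusted p are from this test unless another is named. Depot differences are VWAT minus SWAT. On simulated counts for the VWAT diet comparison over 14266 genes, 86% of 2-fold and 97% of 4-fold changes were called in the right direction, with 6 false among 189 calls. The simulated spread followed the mean level alone, with no gene-specific spread and no library that stood apart. These rates therefore need not hold for the real libraries. An exact test of 3 against 3 cannot go below p = 0.1 and was not used. The replicates are separate pools only as far as the labels number them, so p-values measure the spread between these libraries. No 2 libraries of a group agreed within sampling noise. Same-numbered libraries deviated together, with every r over 0.1, only between VWAT_SD and SWAT_SD (0.18, 0.18 and 0.40), where with the replicate block the same 6 members passed; over all group pairs 6 of 18 had an r over 0.1 (-0.16 to 0.40).

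The members and 23 lists (14 of pathway genes, 9 of markers) were chosen with earlier results of these data known. Named beside the members were up to 4 genes per list and comparison with the lowest adjusted p, calls of lists with 5 or fewer, ligands and receptors that pair with a member, and the 3 genes most like each member (prior count 2). A few genes named by this rule are left unreported. Alternatives were DESeq2 size factors, library size alone, no filter, a mean CPM of at least 5, DESeq2's Wald test (1.42.0), limma voom (3.58.1), only the groups compared, a replicate block, each library left out, and VWAT_HFD replicate 3 with SWAT_HFD replicate 2 left out. Exon lengths are from GENCODE and promoters from RefSeq, both on GRCm38, used for names, lengths and these windows only.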

Additional observations from a re-analysis of the deposited data

How the results depend on the processing

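Of 1035 single-gene values over the alternatives, 42 turned direction, and none of these passed in the main test or in the alternative. The count of the 10 genes that passed for diet in VWAT (5) was 3 with a mean CPM of at least 5, where Il1rl1 is not tested, 2 with only the groups compared, and 2 to 5 with 1 library left out; it was 6 with DESeq2's Wald test, where Csf1 passed too. For diet in SWAT (0) it was 1 with only the groups compared, 1 without VWAT_HFD replicate 3 and SWAT_HFD replicate 2 together, and 0 to 1 with 1 library left out. For the difference in diet response (0) it was 1 with DESeq2's Wald test, 1 without both libraries, and 0 to 1 with 1 library left out. For depot it was 5 to 7 on SD (main 6) and 5 to 8 on HFD (main 7), and 5 to 6 and 6 to 7 with 1 library left out. Over all genes, the counts that passed ran from 757 to 4266 for diet in VWAT (main 2228), 0 to 615 in SWAT (main 159), 0 to 135 for the difference (main 0; 33 with DESeq2), 2347 to 5397 for depot on SD (main 3669) and 2487 to 6954 on HFD (main 3830); the cause was not tested. With the replicate block the counts of members that passed were 5, 0, 0, 6 and 7, as in the main test, and those of all genes were 2279, 247, 1, 3663 and 3787. Of the 12 libraries 9 correlated best with their own number.

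The log2 values that turned were as follows, and the cause was not tested. With scaling by library size alone, Osmr was -0.060 for diet in VWAT, and Lif, Lifr, Osmr and Il1r1 were -0.15, -0.10, -0.11 and -0.094 for diet in SWAT. Under that scaling Osmr was 0.051 for the difference, Il6 and Il6st were 0.12 and 0.19 for depot on SD, and Il6st was 0.097 for depot on HFD. With DESeq2's Wald test Osmr was 0.00046 for the difference, and with limma voom Il6st was 0.012 for diet in SWAT. With VWAT_HFD replicate 3 and SWAT_HFD replicate 2 both left out, Osmr was -0.16 and Lifr -0.013 for diet in VWAT, Il33 was 0.013 and Il1r2 0.058 for diet in SWAT, and Lifr was -0.12 for the difference. With 1 library left out at a time, the log2 change on HFD in VWAT ran from -0.18 to 0.19 for Osmr and from -0.032 to 0.43 for Lifr. In SWAT it ran from -0.055 to 0.079 for Lif, -0.082 to 0.18 for Lifr, -0.17 to 0.18 for Osmr, -0.11 to 0.058 for Il6st, -0.15 to 0.16 for Il33 and -0.27 to 0.17 for Il1r2. For the difference it ran from -0.24 to 0.21 for Osmr and -0.10 to 0.35 for Lifr, and for depot on SD from -0.25 to 0.095 for Il6 and -0.13 to 0.040 for Il6st. Depth limits Il1rl1 in VWAT_SD most, with 8 to 33 counts per library.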

Other observations

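Partners and targets of the 10 genes differed by depot in both directions. Il27ra, a receptor chain for IL-27 that pairs with gp130, was 4.78-fold higher in VWAT on SD (12.6 ± 0.7 against 2.66 ± 0.61 CPM; SD, n = 3; edgeR adjusted p = 8.98e-07) and 5.69-fold higher on HFD (adjusted p = 4.70e-07), while Il11ra1, the IL-11 receptor, was 2.20-fold and 2.08-fold lower (adjusted p = 3.58e-05 and 6.82e-05). Clcf1, a ligand of the ciliary neurotrophic factor receptor, was 2.37-fold and 2.25-fold higher in VWAT. Il18, the IL-1 family cytokine that binds Il18r1, was 3.61-fold lower in VWAT on SD (9.10 ± 1.63 against 32.9 ± 2.6 CPM; SD, n = 3; edgeR adjusted p = 4.24e-07) and 4.44-fold lower on HFD (adjusted p = 1.41e-07). Casp1, the protease that matures IL-18, was 2.11-fold and 2.33-fold lower in VWAT.

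Among STAT3 targets, Lcn2, a secreted siderophore-binding protein, was 9.32-fold higher in VWAT on SD and 6.58-fold higher on HFD, and Il4ra, the IL-4 receptor, was 5.12-fold and 3.88-fold lower. Stat5a and Stat5b were lower in VWAT on both diets, by 1.22-fold to 1.45-fold, but Stat5a's calls were lost in 1 alternative on SD and 3 on HFD (adjusted p up to 0.408) and Stat5b's in 5 and 6 (up to 0.926). Egflam, a matrix protein gene beyond Lifr in the RefSeq order, was 7.11-fold higher in VWAT on SD (adjusted p = 3.39e-07) and 6.02-fold higher on HFD (adjusted p = 8.98e-07); it was named after its values were seen.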
